A study of Mus musculus with 11 samples.

Results

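The folding of a 4.2 Mb region of mouse chromosome 1 was compared between the midhindbrain boundary and the forebrain of wild-type embryos. Contacts were measured by capture Hi-C, in which crosslinked chromatin is cut, religated, sheared and enriched with oligonucleotide baits, so that each read pair stands for loci that lay close together. The comparison took every pair of 10 kb bins between positions 120200001 and 124400000, which gave 88410 bin pairs in each of 2 maps, out of 4 maps of the same size in the series. Coordinates are those of the files, in mouse build mm9 per the submitters' processing notes.

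The series held 11 libraries of embryonic day 9.5 tissue. The comparison used 3 libraries of wild-type midhindbrain boundary, merged by the authors into 1 map, and 3 libraries of wild-type forebrain, likewise merged into 1 map. Beside them, levels are given for 1 map of wild-type forelimb (3 libraries), called forelimb below, and 1 map of forelimb with an inserted stop cassette (2 libraries), called stop-cassette forelimb. The stage field gave day 9.5 for every library, while the protocol text names that day or the next. The strain field named the cross c57bl6.J X 129S6.sv for every library, while CD1 stood in the titles of the forelimb libraries of wild type. The brain libraries were wild type with no transgene or treatment, and had consecutive library numbers. Tissues were dissected and dissociated whole, so each map averages over all cell types of its tissue. The assay holds no RNA, so the dissections could not be checked against marker genes. The labels do not say whether the libraries of a tissue came from separate embryos or pools. Because the libraries were merged, no replicate error exists for any value below: intervals are 95% intervals for counting error alone, and a test sets the reads of 1 merged map against those of another, which says nothing of how the tissues vary.

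Mammalian chromosomes fold into contact domains, stretches whose loci meet one another more often than they meet loci across the domain's borders. Such borders, or boundaries, are commonly formed where cohesin-driven loop extrusion is halted at bound CTCF, and contacts between an enhancer and a promoter often lie within a domain. The midhindbrain boundary is a signalling centre of the embryonic neural tube from which the midbrain and the cerebellum are patterned. The series title names En1, the homeobox gene Engrailed 1, which is expressed around the midhindbrain boundary and is needed for the midbrain and the cerebellum. The forebrain is a part of the neural tube outside this expression domain. In RefSeq's GRCm38.p6 table, the listed genes nearest to En1 in order were Marco and C1ql2 on one side and Insig2 and Ccdc93 on the other. All 20 listed genes were found in that table, but its coordinates are of another build. No gene was therefore placed on the maps, no contact is assigned to a gene, and differences are described along the region.

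The maps had nearly the same depth. The midhindbrain boundary map held 9523316 contacts, of which 5288015 (55.5%) joined bins 30 kb or more apart. The forebrain map held 9489482, of which 5350268 (56.4%) did. A bin pair from 30 kb to 1 Mb apart had a median of 74 contacts in either map, and 1552 bin pairs were empty in the midhindbrain boundary map against 1146 in the forebrain map. Bin sums ranged from 4308 to 78736 and from 4390 to 78795, with the lowest sum at the bin starting at 123560001 in both.

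The forebrain map had the larger share of very long contacts. Per bin pair and per 1000000 contacts at 30 kb or more, the midhindbrain boundary map had 1.076 contacts above 2000 and up to 3000 kb, against 1.231 in forebrain. The ratio was 0.874 (95% counting interval 0.8664 to 0.8814). From 3010 to 4190 kb the values were 0.586 and 0.6928, a ratio of 0.846 (0.8309 to 0.8612). Midhindbrain boundary was the higher map from 30 to 100 kb, at 93.36 against 90.46 contacts per bin pair and a ratio of 1.032 (1.0299 to 1.0344). In the bands between them up to 1500 kb the ratio lay from 0.979 to 1.026, and above 1500 and up to 2000 kb it was 0.939. Above 2000 and up to 3000 kb, forelimb lay close to forebrain, at 1.205 contacts per bin pair, and the stop-cassette forelimb map was the highest of the 4 at 1.547.

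**Figure D1:**
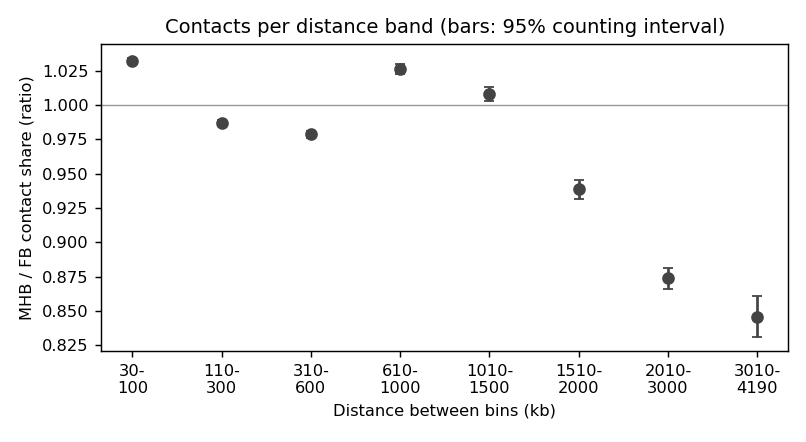
Ratio of the midhindbrain boundary (MHB) contact share to the forebrain (FB) contact share in 8 bands of distance between bins, where points are ratios and bars are 95% counting intervals. The ratio is 1.032 from 30 to 100 kb and falls to 0.846 in the band that starts at 3010 kb.

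Contacts between blocks, domains and bins were compared within distance, so that this shift in decay is removed. The expected count of a bin pair was the mean of its distance stratum multiplied by the balancing factors of its bins, and the observed over expected value (O/E) is 1 for a pair of average strength at its distance. The log2 ratio is that of the midhindbrain boundary O/E over the forebrain O/E. Within a distance the ratios average out near 1 by construction. A gain in one part of the region is therefore offset by lower ratios elsewhere at the same distance, and ratios scaled by total contacts are given where they matter.

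At 100 kb resolution the midhindbrain boundary map had more contact between an area near the middle of the region and its right end. Of 903 pairs of 100 kb blocks, 25 (2.77%) were called, at an adjusted p under 0.05 in the exact binomial test and a log2 ratio of at least 0.322 in size. Contacts were higher in midhindbrain boundary in 22 of them (2.44% of those tested) and lower in 3 (0.332%). All 22 higher pairs touched one another. They lay between the 4 blocks from 122100001 to 122500000 and the 11 blocks from 123300001 to 124400000. In that rectangle, which was drawn after the values were seen, 44 of 44 block pairs had a log2 ratio above 0, from 0.19 to 0.49 with a median of 0.32. Over all 903 pairs the middle 90% of log2 ratios ran from -0.21 to 0.26.

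The pair of 100 kb blocks with the lowest p joined 122400001 to 122500000 with 123300001 to 123400000. It held 12194 contacts in the midhindbrain boundary map and 8491 in the forebrain map, against 10452 in forelimb and 7606 in stop-cassette forelimb. Its O/E was 3.06 in midhindbrain boundary, 2.24 in forebrain, 2.43 in forelimb and 2.32 in stop-cassette forelimb. These blocks were in frequent contact in all 4 maps, and the midhindbrain boundary map was the highest. The log2 ratio of midhindbrain boundary over forebrain was 0.45 (0.41 to 0.49), a 1.37-fold difference (adjusted p = 6.2e-108, exact binomial test). The difference was spread over the blocks, since all 100 bin pairs between them were higher in the midhindbrain boundary map. The strongest single bin pair, 122480001 with 123310001, had 365 and 283 contacts.

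The largest 100 kb log2 ratio was between the blocks starting at 122200001 and 124100001, with 870 contacts against 700. The O/E was 1.31 in midhindbrain boundary, while forebrain, forelimb and stop-cassette forelimb had 0.94, 0.97 and 0.82. In this pair, midhindbrain boundary alone lay above the average for the distance. Its log2 ratio was 0.49 (0.34 to 0.63).

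The 3 lower pairs did not touch one another. Between the blocks starting at 120400001 and 122700001 there were 543 contacts in midhindbrain boundary and 790 in forebrain. The O/E was 0.79 and 1.02, with 0.95 and 0.97 in forelimb and stop-cassette forelimb, and the log2 ratio was -0.36 (-0.52 to -0.20, adjusted p = 3.4e-05, exact binomial test). Between 121300001 and 122800001 there were 768 and 1006 contacts, with a log2 ratio of -0.36. Between 120800001 and 122700001 there were 823 and 1112, with a log2 ratio of -0.33, and this call was lost without the balancing factors (log2 ratio -0.29) and without the 42 bins of lowest coverage (-0.32). All 3 lower pairs joined the left part of the region with blocks between 122700001 and 122900000.

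Limits of these calls are set by scatter beyond counting and by the scaling. Squared deviations of the 100 kb counts from their expected split between the maps averaged 13.3 times those of counting. This excess is called the scatter of the ratios below, and any real differences are part of it. With the variance raised by that factor, in a normal approximation to the test, 3 higher and 0 lower pairs remained. They joined blocks from 122300001 to 122500000 with blocks from 123300001 to 123500000. No called gain farther to the right remained. In the exact binomial test itself, 420 pairs (46.5%) had an unadjusted p under 0.05, and 374 (41.4%) passed on adjusted p with no limit on fold. When maps were scaled by total contacts instead, which moved the median log2 ratio to -0.049, 14 pairs were higher and 50 lower, so the share of calls that were higher was 21.9% in place of 88%. With the fold taken from the deposited balanced signal and the adjusted p still from the counts, the share was 76.7%.

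**Figure D2:**
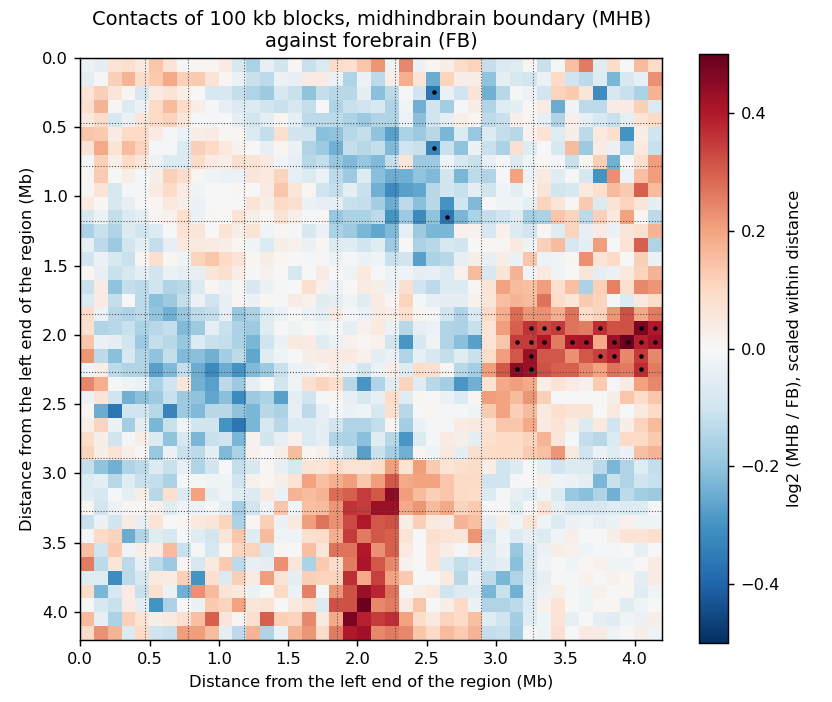
Log2 ratio of midhindbrain boundary (MHB) over forebrain (FB) contacts for 903 pairs of 100 kb blocks, scaled within distance, with both axes as distance from the left end of the region in Mb. Called pairs are marked by dots: the 22 higher ones form 1 patch and reach 0.49, and the 3 lower ones are single blocks at -0.36 and -0.33.

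Scored over 200 kb squares, both maps divided the region at the same places. The insulation score, the log2 of the mean signal in a 200 kb square across a bin edge over its mean in the map, is low where few contacts cross. Each brain map had 7 boundaries, and 7 of 7 were shared within 20 kb. With a 100 kb square, 11 of 13 boundaries of the midhindbrain boundary map were shared. The 7 shared boundaries of the 200 kb square lay at 120670001, 120980001, 121380001, 122050001, 122470001, 123090001 and 123470001 (123080001 in place of 123090001 in midhindbrain boundary). The deepest was at 122470001, with a score of -0.99 in midhindbrain boundary, -0.94 in forebrain, -1.05 in forelimb and -0.94 in stop-cassette forelimb.

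Boundary strength differed by small amounts. At 120670001, 120980001 and 123090001 the midhindbrain boundary score was higher by 0.098, 0.095 and 0.095, which means that relatively more contacts crossed these edges. At 123090001 the scores were -0.52 in midhindbrain boundary, -0.62 in forebrain, -0.50 in forelimb and -0.44 in stop-cassette forelimb. There forebrain had the lowest score of the 4 maps. At 122470001 the midhindbrain boundary score was lower by 0.053, and the other boundaries differed by -0.006, 0.041 and 0.059. For comparison, the SD of the difference over all 381 scored edges was 0.041 and its median counting SD was 0.0075. Among edges at least 100 kb apart, the largest differences were 0.113 at 120720001, 0.110 at 120440001 and 0.099 at 120990001. The lowest difference was -0.099 at 122420001, on the left flank of the deepest boundary, with scores of -0.57 and -0.47, and it was -0.03 with a 100 kb square. Differences of -0.071 at 122720001 and -0.065 at 123250001 changed sign to 0.01 with a 100 kb square and with raw counts, respectively.

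The shared boundaries divide the region into 8 domains, numbered D1 to D8 from left to right. Since they were drawn from the same maps, contacts between domains are sums over parts of those maps and no independent evidence. Of 36 domain pairs, 32 (88.9%) passed the exact binomial test, which had no limit on fold here, 11 higher in midhindbrain boundary (30.6%) and 21 lower (58.3%). With sums this large nearly every pair passed, so sizes carry the description. Squared deviations from the expected split averaged 178 times those of counting here, so counting intervals understate the scatter among domain pairs. Within domains the log2 ratios were small: 7 of 8 were lower and 1 higher, the largest in size being -0.06 in D6 (122470001 to 123090000), with 562611 contacts against 584278.

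The largest gains between domains joined D5 and D6, on either side of the deepest boundary, with domains to their right. D5 (122050001 to 122470000) with D8 (123470001 to 124400000) held 42526 contacts in midhindbrain boundary and 36546 in forebrain. The O/E was 1.09, 0.87, 0.92 and 0.82 in midhindbrain boundary, forebrain, forelimb and stop-cassette forelimb. Midhindbrain boundary was the highest of the 4 maps, and its log2 ratio over forebrain was 0.32 (0.30 to 0.34). D5 with D7 (123090001 to 123470000) held 115736 and 95617 contacts, with O/E of 2.17, 1.86, 1.96 and 1.70 in the same order and a log2 ratio of 0.22 (0.21 to 0.23). D5 and D7 are separated by D6, yet their O/E was above that of D5 with its neighbour D6 in all 4 maps (0.72, 0.75, 0.73 and 0.71). D6 with D7 held 280442 and 252388 contacts, with O/E of 1.07 against 0.97 in each of forebrain and forelimb, and 0.99 in stop-cassette forelimb. Its log2 ratio was 0.14 (0.13 to 0.15).

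Contacts from the middle of the region to its left part went the other way. D3 (120980001 to 121380000) with D6 held 28394 contacts in midhindbrain boundary and 34269 in forebrain, with O/E of 0.76 and 0.87 and a log2 ratio of -0.20 (-0.22 to -0.17). In forelimb and stop-cassette forelimb the O/E was 0.90 and 1.00, so midhindbrain boundary was the lowest map. D2 (120670001 to 120980000) with D5 had O/E of 0.92 and 1.05 and a log2 ratio of -0.18 (-0.21 to -0.16). D3 with D5 had 0.80 and 0.89, and a log2 ratio of -0.16 (-0.18 to -0.15). D2 with D6 had 0.85 and 0.94, and a log2 ratio of -0.14 (-0.17 to -0.11). D5 and D6 thus had lower O/E with D2 and D3 in midhindbrain boundary, and higher O/E with D7 and D8 (D6 with D8 0.61 and 0.58, log2 ratio 0.07). Gains with D7 and D8 were not confined to D5 and D6. D4 (121380001 to 122050000) had a log2 ratio of 0.08 with each of D7 and D8. D3 had 0.06 with D8 but -0.04 with D7. D1 and D2 had -0.08 and -0.06 with D7, and -0.01 and -0.04 with D8.

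The profile of D5 along the region shows where its ratio turned. With the blocks of D6 from 122500001 to 123100000 the log2 ratio was between -0.16 and -0.02, and with the block starting at 123100001 it was 0.11. It reached 0.36 at the block starting at 123300001, where the O/E was 2.36 in midhindbrain boundary, 1.84 in forebrain, 1.93 in forelimb and 1.73 in stop-cassette forelimb. The log2 ratio at 123400001 was 0.39 (O/E 1.79 and 1.37), and from there to the right end of the region it stayed between 0.27 and 0.38. On the left, between 120400001 and 121500000, it lay between -0.21 and -0.13. Closer to D5, from 121600001 to 122050000, it lay between -0.03 and 0.03. The leftmost block of the region differed from its neighbours, at 0.14 (O/E 1.45 and 1.32).

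**Figure D3:**
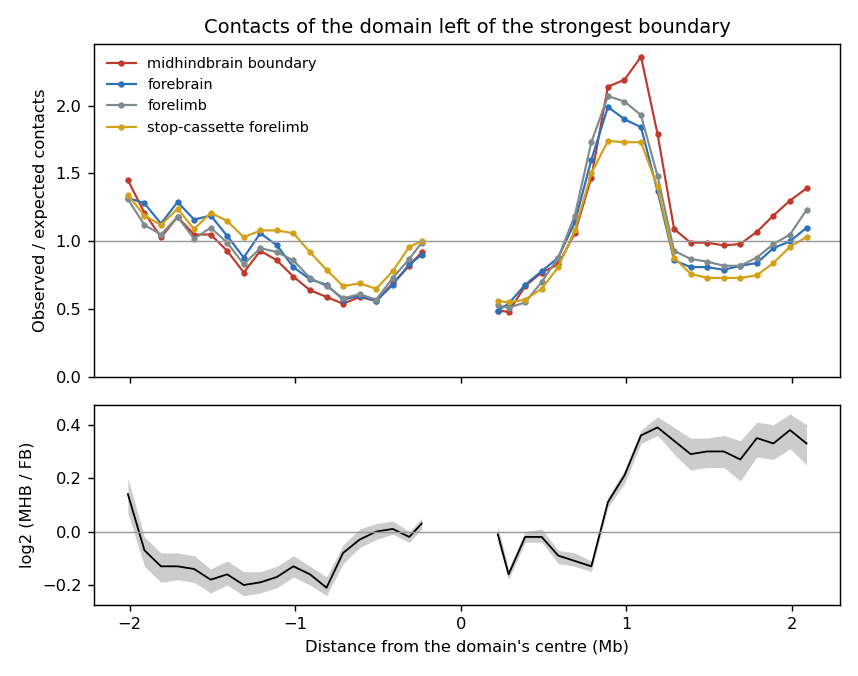
Observed over expected contacts of domain D5 with the rest of the region in all 4 maps (upper panel) and the log2 ratio of midhindbrain boundary over forebrain with its 95% counting interval (lower panel), against distance in Mb. On the right, the highest O/E of midhindbrain boundary is 2.36, at a block where forebrain has 1.84 after its own highest value of 1.99, and the log2 ratio stays between 0.27 and 0.39 from there to the right end.

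The coverage of the blocks moved with part of this pattern. The log2 ratio of the share of all contacts that fell to a block was 0.067 to 0.074 in the 3 blocks from 123100001 to 123400000, where midhindbrain boundary was higher. It was -0.074 to -0.028 in the 8 blocks from 123600001 to 124400000, where forebrain was higher. D5's O/E was higher with both stretches. Without the balancing factors, which set the coverage of all bins equal, the log2 ratio of D5 with D8 was 0.29, and scaled by total contacts it was 0.27. The part of coverage in the gains was otherwise not tested.

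At 50 kb resolution, 168 of 3570 pairs (4.71%) were called, 101 higher in midhindbrain boundary (2.83%) and 67 lower (1.88%). They were most frequent at over 1000 and up to 2000 kb, where 76 were higher and 44 lower among 1070 tested (11.2%). At up to 300 kb, 0 were higher and 1 was lower among 567 (0.176%), although those pairs had the most contacts, a median of 8967 over both maps. From 350 to 1000 kb, 14 were higher and 13 lower among 987 (2.74%). The called differences thus lay mostly between loci more than 1 Mb apart. With the variance raised to the scatter of the ratios (4.6 times counting), 11 higher and 5 lower pairs remained. Among them, only 122350001 with 123400001 lay more than 1 Mb apart, and no higher pair reached past 123450000. The excess of called pairs beyond 1 Mb was thus not kept at that variance. With no limit on fold, 599 (16.8%) passed the exact binomial test on adjusted p, and scaled by total contacts 76 were higher and 198 lower (27.7% higher, in place of 60.1%).

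Touching calls of one sign joined into 13 higher and 34 lower clusters. The largest higher cluster, described for its size after its values were seen, had 48 pairs, between 122000001 to 122550000 and 123150001 to 123800000. Its pair with the lowest p, 122450001 with 123300001, held 4438 and 3130 contacts, and its O/E was 4.18 in midhindbrain boundary, 3.05 in forebrain, 3.33 in forelimb and 3.15 in stop-cassette forelimb (log2 ratio 0.45, 0.39 to 0.52). A second cluster of 40 pairs lay farther to the right, and none of its pairs remained with the variance raised. Its pair with the lowest p, 122200001 with 124050001, held 229 and 154 contacts, with O/E of 1.28, 0.76, 0.84 and 0.72 and a log2 ratio of 0.74 (0.44 to 1.05). Of single blocks, the one starting at 122150001 had 15 higher and 0 lower partners. The one starting at 122400001 had 14 and 7, and the one starting at 122200001 had 13 and 2.

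The other higher clusters named by rule were small and had few contacts. Their representatives were 120950001 with 123600001 (65 against 48 contacts, log2 ratio 0.75), 122000001 with 124100001 (116 against 88, 0.61), 121800001 with 123500001 (197 against 148, 0.55), 122500001 with 124300001 (208 against 171, 0.51) and 122050001 with 124350001 (134 against 110, 0.51). The calls of the first, the second and the last of these were lost when maps were scaled by total contacts, at 0.51, 0.45 and 0.31. The first was also lost without the balancing factors (0.69) and the second without the 42 bins of lowest coverage (0.49). In the first pair, forebrain stood apart below the other maps, with an O/E of 0.41 against 0.69 in midhindbrain boundary, 0.67 in forelimb and 0.70 in stop-cassette forelimb.

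The lower clusters were more scattered. The largest had 13 pairs, and its pair with the lowest p, 121300001 with 122450001, held 287 contacts in midhindbrain boundary and 415 in forebrain. The O/E was 0.51 and 0.74, with 0.70 in forelimb and 0.87 in stop-cassette forelimb, and the log2 ratio was -0.53 (-0.75 to -0.31, adjusted p = 4.7e-05, exact binomial test). Midhindbrain boundary was the lowest of the 4 maps in this pair. Its call was lost with the variance raised to the scatter of the ratios (adjusted p = 0.77, normal approximation to the binomial test). The calls of all 12 pairs named by rule at 50 kb were likewise lost. Every lower 50 kb pair that remained involved the block starting at 122500001. A cluster of 6 pairs was led by 121100001 with 122600001, which held 373 and 538 contacts (log2 ratio -0.51). In a cluster of 2 pairs, 120750001 with 122450001 held 224 and 353 (-0.54). The pair 121050001 with 122700001 held 250 and 377 (-0.50). The pairs with the most negative ratios, 120900001 with 124050001 (52 against 99, -0.68) and 120700001 with 123850001 (73 against 130, -0.57), were among the most distant, and both missed the threshold without the 42 bins of lowest coverage, at ratios of -0.63 and -0.54 (adjusted p = 0.11 and 0.067, exact binomial test). By block, the one starting at 122600001 had 0 higher and 8 lower partners, and the one at 122650001 had 0 and 7. The block at 122400001 also had 7 lower partners, beside 14 higher ones.

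The block from 122500001 to 122550000, just to the right of the deepest boundary, had strong contacts in the forebrain map that were weaker in midhindbrain boundary. These pairs were chosen after their values were seen. With the block starting at 123050001, at the right end of D6, it held 11348 contacts in midhindbrain boundary and 16394 in forebrain. The O/E was 4.64 and 5.85, with 4.60 in forelimb and 4.05 in stop-cassette forelimb, so that forebrain stood above the other 3 maps. The log2 ratio was -0.33 (-0.37 to -0.30, adjusted p = 2.6e-77, exact binomial test). With the block starting at 122900001 it held 3836 and 5934 contacts, and the O/E was 1.64 in midhindbrain boundary, 2.30 in forebrain, 2.19 in forelimb and 1.98 in stop-cassette forelimb (log2 ratio -0.49, -0.55 to -0.43). There, midhindbrain boundary was the lowest map. The 4 blocks from 122900001 to 123100000 were all called lower, from -0.49 to -0.32.

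Across the boundary on the left, the same block had fewer contacts in midhindbrain boundary with the block starting at 122200001. There were 1630 contacts against 2455, and the O/E was 0.52, 0.72, 0.62 and 0.64 in midhindbrain boundary, forebrain, forelimb and stop-cassette forelimb (log2 ratio -0.46, -0.55 to -0.37, adjusted p = 4.9e-21, exact binomial test). The block starting at 122200001 also had fewer contacts with that at 123050001, 1571 against 2016, with O/E of 1.58, 2.02, 1.83 and 1.49 and a log2 ratio of -0.35 (-0.45 to -0.26). This call was lost when maps were scaled by total contacts (-0.31). It was also lost with the variance raised to the scatter of the ratios (adjusted p = 0.077, normal approximation to the binomial test). Of the 6 pairs among the blocks starting at 122200001, 122500001, 122900001 and 123050001, 4 were called lower. These blocks were chosen after their values were seen, so this count is no separate evidence. Over all 50 kb pairs, 67 of 3570 (1.88%) were called lower. The log2 ratio of 122200001 with 122900001 was -0.20 and that of 122900001 with 123050001 was -0.15, both short of 0.322 in size. The share of all contacts that fell to the 100 kb block starting at 122500001 was also lower in midhindbrain boundary, with a log2 ratio of -0.064.

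Just beyond D6, the ratio of the block starting at 122500001 turned. With 123100001 the log2 ratio was 0.01 (O/E 2.37 and 2.36), and with 123200001 it was 0.36 (0.28 to 0.43; 3085 contacts against 2472, O/E 2.28 and 1.79). The blocks on either side of 123200001 had only 0.08 and 0.07, and those from 123300001 to 123500000 had 0.16 to 0.24. In 10 kb bins, the losses had local peaks. The O/E with the bin at 122940001 was 2.09 in midhindbrain boundary and 3.20 in forebrain (log2 ratio -0.62). With the bin at 123050001 it was 3.41 and 5.18 (-0.60). The strongest bin of the profile, 123070001, had 7.36 and 8.99 (-0.29). To the left, the bin at 122230001 had 0.62 and 0.96 (-0.64).

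**Figure D4:**
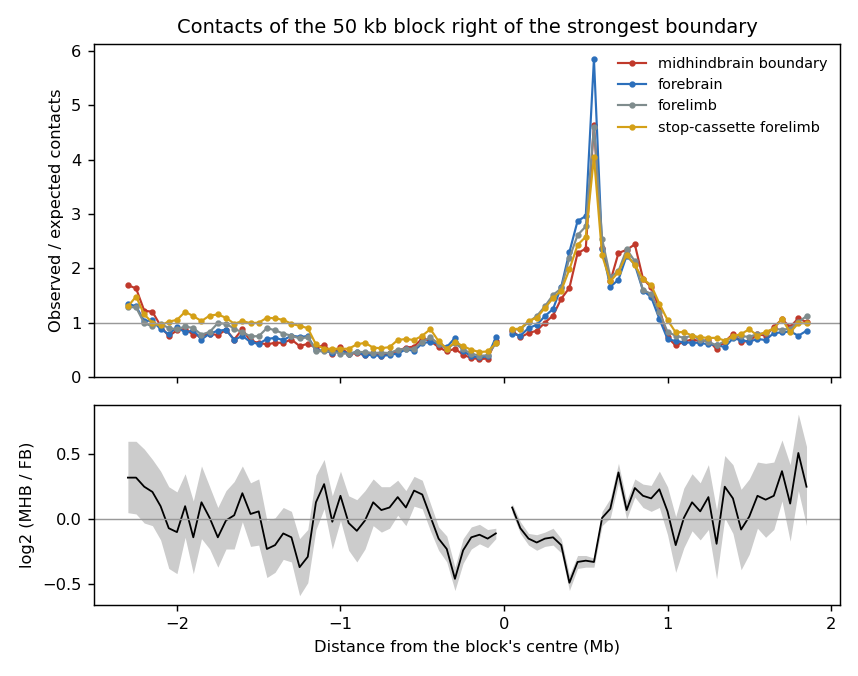
Observed over expected contacts of the 50 kb block that starts at 122500001 with the rest of the region in all 4 maps (upper panel) and the log2 ratio of midhindbrain boundary over forebrain with its 95% counting interval (lower panel), against distance in Mb. The highest O/E, with the block starting at 123050001, is 4.64 in midhindbrain boundary and 5.85 in forebrain. The ratio turns from -0.33 there to 0.36 at the block starting at 123200001, whose neighbours on either side have 0.08 and 0.07.

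**Figure D5:**
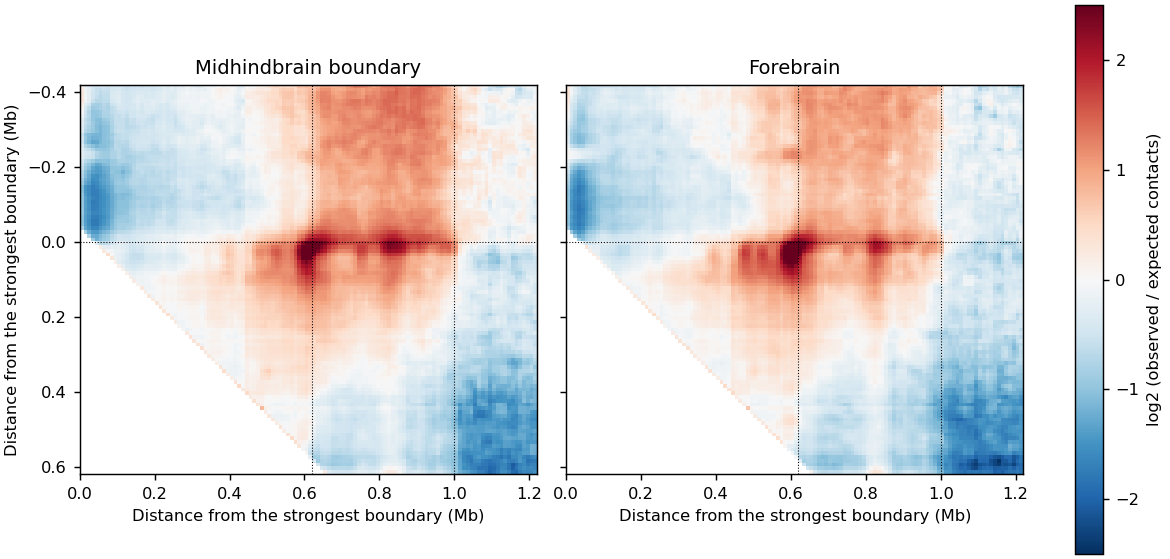
Log2 observed over expected contacts of 10 kb bins around the strongest boundary in the midhindbrain boundary and forebrain maps, with both axes as distance from that boundary in Mb. The forebrain map is stronger where the block just right of the boundary meets the right end of D6 (O/E 5.85 against 4.64), and the midhindbrain boundary map is stronger between D5 and D7 (2.17 against 1.86).

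Single bin pairs seldom passed. Of 87153 bin pairs, 57259 had at least 20 contacts over both maps, and 6 (0.0105%) were called at 2-fold or more, 4 higher in midhindbrain boundary (0.00699%) and 2 lower (0.00349%). Of the 4 higher pairs, 3 lay inside the area of gain between D5 and D7. The sums of that area include the same contacts, so this is no separate evidence. The 3 pairs were 122420001 with 123330001 (82 contacts against 35, log2 ratio 1.16), 122300001 with 123350001 (83 against 36, 1.15) and 122400001 with 123330001 (109 against 52, 1.01). In each of these, forelimb and stop-cassette forelimb lay between the brain maps, with O/E between 1.39 and 1.77. The fourth, 121210001 with 121660001, had 60 contacts against 21 (1.59, 0.85 to 2.38). Its O/E was 0.82, 0.27, 0.66 and 0.72 in midhindbrain boundary, forebrain, forelimb and stop-cassette forelimb, so forebrain was the map that stood apart.

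The lower bin pairs had very few contacts in midhindbrain boundary. Between 120880001 and 122090001 there were 2 contacts against 23, with 21 and 19 in forelimb and stop-cassette forelimb (log2 ratio -3.52, -6.65 to -1.50). Here midhindbrain boundary stood apart. Between 121010001 and 123120001 there were 5 against 31, with 9 and 21 in the forelimb maps (-2.51, -4.23 to -1.14). The O/E was 0.36 in midhindbrain boundary, 2.08 in forebrain, 0.61 in forelimb and 1.49 in stop-cassette forelimb, so both of the wild-type maps beside forebrain were low. With the variance raised to the scatter of the ratios, 0 of these 6 pairs remained, while 3616 pairs (6.32%) had an unadjusted p under 0.05 in the exact binomial test.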

How the data were processed

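Per the labels, tissue was dissociated, fixed, cut with DpnII, ligated and enriched with SureSelect baits, and the names of the maps give HiCUP, MAPQ30 and merged replicates. The submitters' processing notes name Bowtie2 2.3.4.1, Juicer 1.7.6 and mm9, without their roles. Raw contact counts for pairs of 10 kb bins were deposited by the authors (absent pairs were read as 0). The authors also deposited a balanced (Knight-Ruiz, KR) signal, which was checked to equal the count divided by 1 factor per bin.

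Computation used Python 3.11.15, numpy 2.4.6 and scipy 1.17.1. Distance strata were 10 kb wide to 2 Mb, 100 kb to 3.5 Mb and 1 band beyond, with bin pairs under 30 kb left out. Counts of both maps were compared by a two-sided exact binomial test (smaller tail doubled, Benjamini-Hochberg adjustment over all pairs tested, Clopper-Pearson 95% intervals). Blocks needed 50 counts over both maps, bin pairs 20. Replicates were merged, so edgeR, which needs a dispersion between replicates, was not used. Boundaries were the lowest scores within 50 kb, at least 0.2 below the highest score within 200 kb on each side.

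Named were, by rule, the clusters of called pairs, each represented by its pair with the lowest p, whose representatives had the 6 most extreme ratios in each direction, the 3 most extreme insulation edges each way at least 100 kb apart, and all boundaries and called domain pairs that carry the description. Members, block sizes and gene list were chosen with earlier results of these data known. The test was checked on simulated counts with counting noise alone, so that check does not cover the scatter beyond counting in the maps. The planned gene viewpoints were not run, since no gene position in mm9 was given, and no sequence is printed. Read pairs are not independent molecules where duplicates remain.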

Additional observations from a re-analysis of the deposited data

How the results depend on the processing

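No paired analysis was possible because the replicates of each tissue were merged into 1 map, and for the same reason no replicate could be left out. Gene viewpoints were not run, and a shift of the block grid gives no value for single pairs. With the variance raised to the scatter of the ratios, calls were made by a normal approximation to the binomial test. They fell from 22 higher and 3 lower to 3 and 0 at 100 kb, to 11 and 5 at 50 kb, and from 4 and 2 to 0 and 0 at 10 kb. With a 1.5-fold limit the exact binomial calls were 0 and 0 at 100 kb and 8 and 1 at 50 kb. With no fold limit they were 170 and 204 at 100 kb, 329 and 270 at 50 kb, and 18 and 45 at 10 kb. Restricted to 30 kb to 1 Mb, where fewer pairs are tested, they were 2 and 1 at 100 kb, 13 and 14 at 50 kb, and 1 lower at 10 kb. Scaled by total contacts, they were 14 and 50 at 100 kb, 198 lower at 50 kb and 4 lower at 10 kb. Without KR factors there were 5 lower pairs at 100 kb, and 8 higher and 6 lower at 10 kb. With the fold taken from the KR signal and the adjusted p still from the counts, there were 7 lower pairs at 100 kb. A higher count minimum gave 1 lower pair at 10 kb. A 100 kb insulation square gave 11 shared boundaries of 13. The insulation difference turned to 0.01 at 122720001 with that square and to 0.01 at 123250001 with raw counts. On the KR signal the ratios were 0.984 from 310 to 600 kb, 1.021 from 610 to 1000 kb and 0.954 above 1500 and up to 2000 kb, and without the 42 bins of lowest coverage the last was 0.930. Of the other values that answer a comparison, 60 were counts within 1.5 times the main count or ratios within their counting interval. Of values of single pairs, edges or boundaries, 263 kept their direction and, where tested, their side of the threshold, and 48 lost and 2 gained a call and 9 moved, all in the same direction. Part of the 263 was fixed in advance. A called pair cannot lose its call when the fold limit is dropped. Another fold limit, variance or count minimum leaves a pair's log2 ratio as it was, so its direction could not turn. Counts under 20 over both maps left 10 kb pairs untested, so depth limits that scale most.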
